A study of Mus musculus with 40 samples.

Results

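The genes described here are 10 markers of macrophages and neutrophils, read in the aortas and kidneys of mice with and without a deletion of EGFR by Tek-cre. They are Csf1r, Adgre1, Cd68, Mrc1 and Lyz2 for macrophages and Itgam, Slpi, Padi4, S100a8 and S100a9 for neutrophils and other myeloid cells. They are 10 of 55335 genes in the aortic count table and 10 of 55382 in the renal one, and they were listed for their spread between libraries and groups. Slpi, Padi4 and Itgam were picked from their high values in single EC-EGFR-KO HFD aortas, so their aortic values are a description without a test wherever those libraries take part.

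EC-EGFR-KO mice carried floxed EGFR alleles (EGFR flox/flox) and the transgene B6.Cg-Tg(Tek-cre)1Ywa/J, in which the Tie2 promoter drives Cre. EC-EGFR-WT mice carried the same Cre without loxP sites in EGFR, so both genotypes expressed the recombinase. The Tie2 promoter is also known to be active in blood-forming cells, so the deletion need not be limited to endothelium. All mice were on a C57BL/6 background and were fed a standard diet with 10% of energy from fat (SD in the labels, SFD in the study) or a high fat diet with 60% (HFD); feeding began at 6 weeks of age and lasted 18 weeks. Each of the 4 combinations of genotype and diet held 5 aortic and 5 renal libraries, 40 in all.

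Resident macrophages of the vessel wall and the kidney depend on signals through the CSF1 receptor and clear debris, apoptotic cells and immune complexes. Neutrophils circulate in blood, enter tissue on injury by means of beta-2 integrins, and carry granule proteins and the calcium-binding pair S100A8 and S100A9 in large amounts. Several of these genes are shared between both cell types and monocytes, Itgam and Lyz2 among them.

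Values are FPM, here counts relative to the TMM-scaled library size, and tests are from edgeR's quasi-likelihood fit of the 20 libraries of a tissue with Benjamini-Hochberg adjustment over all genes tested. Total counts ranged from 17520161 to 36452741 in aortas and from 19643033 to 48833447 in kidneys. Both tissues held a pair of libraries from different groups that differed by less than the sampling noise, namely R-1 (WT SD) with R-12 (KO SD) in aortas and a1 (KO HFD) with a12 (WT HFD) in kidneys, and results are given without these pairs where that changes them. The aortas R-16 (KO HFD) and R-11 (KO SD) stood apart by red blood cell and leukocyte genes. The kidneys a8 and a9 (KO SD) and a17 (WT SD) stood apart by S100a8, S100a9, Csf3r, Il1b and Cebpb, but not by all neutrophil genes. The kidneys a16 and a18 (WT SD) had the lowest levels of several macrophage and endothelial genes. Whole-tissue Egfr, the targeted gene, had group means of 39.6 to 44.5 FPM in aortas and 40.5 to 56.3 FPM in kidneys and overlapped between genotypes under each diet, in tissues where cells other than endothelium also express it. In such tissue RNA, fewer cells of a type and less RNA per cell cannot be told apart.

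The level of the genes relative to each other was compared per kb of exon. In aortas, Lyz2, the secreted lysozyme of macrophages and granulocytes, had the highest mean level of the list at 224 FPM per kb. Csf1r, the receptor for CSF1 and IL-34, followed among the macrophage genes with 11.5 FPM per kb. Mrc1, the mannose receptor of tissue-resident macrophages, had 8.56 FPM per kb, Cd68, a lysosomal glycoprotein, 7.41, and Adgre1, which encodes the F4/80 antigen, 5.72. The mean level of Slpi, an inhibitor of neutrophil elastase, was 22.4 FPM per kb, but 93.0% of its counts came from the single library R-16. S100a9 had 2.58 FPM per kb and S100a8 1.22. Itgam had 1.63 FPM per kb and Padi4 0.727, and R-16 held 55.8% and 81.2% of their counts. R-16 also held 27.5% of the aortic counts of Lyz2, 12.7% of those of Adgre1 and 11.4% of those of Cd68. For the other listed genes its share was 2.23% (Mrc1) to 5.72% (Csf1r). In kidneys, Lyz2 (23.9 FPM per kb) and Csf1r (9.92) again led the list, and Padi4, the peptidylarginine deiminase of neutrophils, had 44 counts in all 20 libraries together and did not pass the expression filter. In the GENCODE annotation of GRCm38, Slpi spans chr2:164354070-164389095, Padi4 chr4:140745865-140774236, Itgam chr7:128062640-128118491, S100a8 chr3:90668978-90670035 and S100a9 chr3:90692632-90695721. Lyz2 spans chr10:117277331-117282321, Adgre1 chr17:57358691-57483527, Cd68 chr11:69664213-69666153 and Mrc1 chr2:14229392-14332057, and Csf1r lies on chromosome 18. Lyz2 has the close paralogue Lyz1, and how reads shared between them were counted is not given in the sources used here.

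The genes differed in how far libraries of a group were spread. In aortas, the biological coefficient of variation was 150% for Slpi, 113% for Padi4 and 79.6% for Itgam, where the median over all genes tested was 23.1%. It was 54.2% for Lyz2, between 32.1% and 38.1% for Cd68, Mrc1 and Adgre1, and 22.0% for Csf1r, close to that median. In kidneys, the median was 17.3%, and S100a9 (90.6%) and S100a8 (82.4%) were the most variable of the list. Csf1r (12.2%) lay under the renal median, whereas Lyz2 (23.3%) and Cd68 (21.2%) were somewhat above it.

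Sequences upstream of the transcription start were read from RefSeq (GRCm38.p6) for the 8 listed genes with an entry that could be shown, up to 250 bases with exon bases left out. Those of Slpi, Padi4 and Itgam, which were high together in R-16, and of S100a8 and S100a9, which moved together in both tissues, are shown 5′ to 3′ on the strand of the gene. Capitals mark matches on either strand to 3 motifs of myeloid transcription factors, namely the PU.1 core GAGGAAGT, the ETS core GAGGAA it contains, and the C/EBP consensus TTNCNNAA. The windows are chr2:164356508-164356757 (minus strand) for Slpi, chr4:140774237-140774453 (minus strand) for Padi4, chr7:128062390-128062639 (plus strand) for Itgam, chr3:90668821-90668977 (plus strand) for S100a8 and chr3:90695722-90695971 (minus strand) for S100a9. The RefSeq start of Slpi lies within the longer span of the gene given above.
Slpi: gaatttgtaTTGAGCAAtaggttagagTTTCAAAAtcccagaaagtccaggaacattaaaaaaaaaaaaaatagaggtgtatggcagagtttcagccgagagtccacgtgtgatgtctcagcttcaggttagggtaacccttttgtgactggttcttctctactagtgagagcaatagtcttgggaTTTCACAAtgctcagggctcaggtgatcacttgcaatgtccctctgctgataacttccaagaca
Padi4: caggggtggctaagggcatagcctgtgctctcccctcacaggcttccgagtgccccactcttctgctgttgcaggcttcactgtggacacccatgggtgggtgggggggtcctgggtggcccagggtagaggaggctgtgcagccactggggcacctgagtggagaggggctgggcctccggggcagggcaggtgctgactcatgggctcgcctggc
Itgam: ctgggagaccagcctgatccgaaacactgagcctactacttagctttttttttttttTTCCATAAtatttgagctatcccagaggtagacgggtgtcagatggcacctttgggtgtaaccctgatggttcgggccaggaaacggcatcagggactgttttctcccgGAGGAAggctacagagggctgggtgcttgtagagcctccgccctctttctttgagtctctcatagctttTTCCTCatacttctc
S100a8: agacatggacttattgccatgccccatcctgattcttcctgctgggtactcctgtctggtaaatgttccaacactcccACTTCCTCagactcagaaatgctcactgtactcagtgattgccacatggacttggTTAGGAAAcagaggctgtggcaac
S100a9: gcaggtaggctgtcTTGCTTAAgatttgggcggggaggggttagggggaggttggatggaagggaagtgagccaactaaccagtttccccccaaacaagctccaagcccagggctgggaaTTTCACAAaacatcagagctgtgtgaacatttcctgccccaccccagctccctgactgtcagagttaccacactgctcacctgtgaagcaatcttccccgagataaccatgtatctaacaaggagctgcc

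The motifs were counted over the full 250 bases before the start, exon bases included, so that some matches lie outside the letters shown. Of the 8 genes, 7 held the C/EBP consensus there, 4 the ETS core and 1, S100a8, the PU.1 core. Over all 32851 mouse promoters of this length, 36.8% held the C/EBP consensus, 23.3% the ETS core and 2.4% the PU.1 core. Slpi had 3 C/EBP matches and no ETS core, Itgam 2 ETS cores and 1 C/EBP match, and S100a9 2 C/EBP matches. Padi4 held no match to these motifs, so the 3 genes that were high together in R-16 shared no match of this kind.

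In aortas, the values of Slpi, Padi4 and Itgam were set by 1 EC-EGFR-KO HFD library, R-16, with smaller elevations of Slpi and Padi4 in 3 more EC-EGFR-KO aortas. Slpi was 0.957, 0.132, 0, 0.191 and 0.746 FPM in WT SD (R-1 to R-5) and 0.554, 0.330, 1.22, 0.168 and 0.351 FPM in WT HFD (R-6 to R-10). It was 8.23, 1.01, 7.05, 0.596 and 0.329 FPM in KO SD (R-11 to R-15) and 498, 8.48, 0.958, 0.267 and 0.0494 FPM in KO HFD (R-16 to R-20). R-16 was thus 58.8 times above the next library, while 4 KO libraries, R-11, R-13, R-16 and R-17, were above every other aorta and the remaining KO libraries lay among those of WT. The mean of KO HFD was 102 ± 222 FPM (SD, n = 5) with R-16 and 2.44 ± 4.04 FPM (n = 4) without it.

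Padi4, which converts arginine of histones to citrulline, was raised in the same 4 libraries. Its level was 0.422, 0.220, 0.159, 0.334 and 0.395 FPM in WT SD and 0.151, 0.220, 0.700, 0.168 and 0.0585 FPM in WT HFD. In KO SD it was 1.63, 0.394, 2.70, 0.497 and 0.282 FPM, and in KO HFD 58.7, 2.14, 0.333, 0.480 and 0.346 FPM. The 4 libraries R-11, R-13, R-16 and R-17 had at least 1.63 FPM and the other 16 at most 0.700 FPM, the same split as for Slpi (at least 7.05 and at most 1.22 FPM). R-16 held 81.2% of all aortic Padi4 counts, and without it the mean of KO HFD was 0.825 ± 0.881 FPM (n = 4) instead of 12.4 ± 25.9 FPM.

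Itgam, the alpha chain of the beta-2 integrin Mac-1, was high in R-16 only. It was 3.97, 3.16, 2.85, 4.43 and 3.69 FPM in WT SD and 3.47, 2.75, 2.51, 1.90 and 1.52 FPM in WT HFD. KO SD libraries had 5.25, 4.05, 5.60, 2.53 and 3.34 FPM and KO HFD libraries 99.3, 3.99, 2.16, 4.59 and 3.11 FPM. Apart from R-16, values of all groups overlapped, and 55.8% of the Itgam counts of all aortas came from R-16. A second gene on the same strand, Gm49368, shares 55809 bases with Itgam but took only 1 count in all aortas.

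Of the remaining genes, Lyz2, Adgre1 and Cd68 were also highest in R-16, and Csf1r, Mrc1, S100a8 and S100a9 were not. Lyz2 was 1875 FPM in R-16 and 186 to 267 FPM in the other KO HFD aortas, and no other aorta exceeded 307 FPM. Adgre1 was 55.0 FPM in R-16, 2.06 times the next library, and Cd68 24.8 FPM, 1.89 times the next. Csf1r was 90.6 FPM in R-16 and reached 101 FPM in a WT SD aorta. Mrc1 was 29.1 FPM in R-16, about the lower end of all 20 aortas (26.9 FPM) and 0.516 times the median of the others. S100a8 (0.984 FPM) and S100a9 (1.04 FPM) were at mid-range there, where R-11 was highest with 3.11 and 4.69 FPM.

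**Figure D1:**
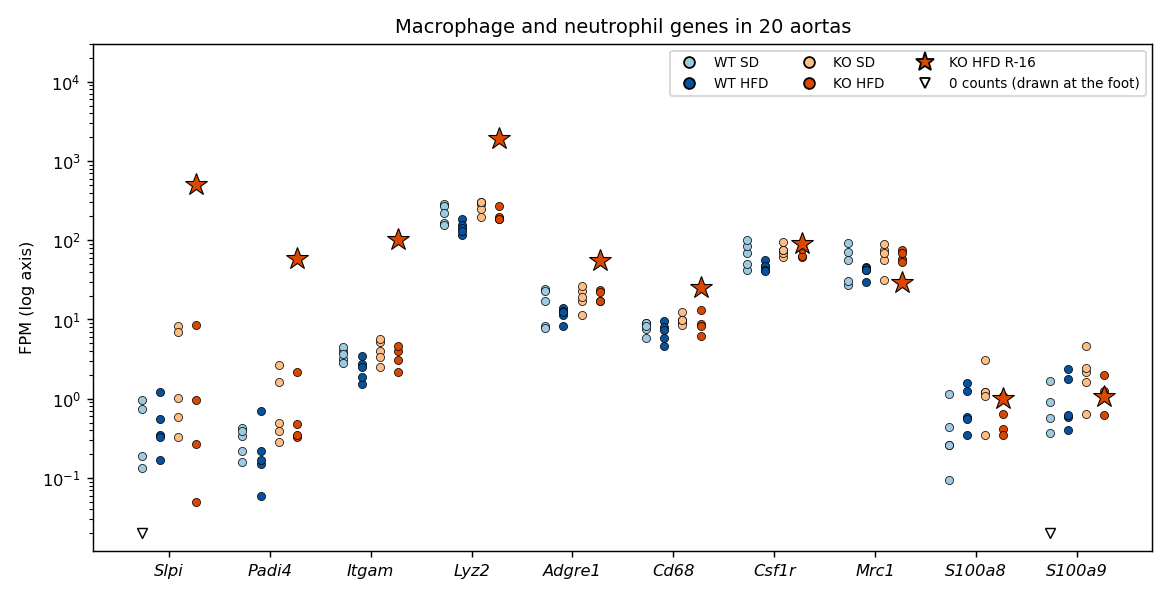
FPM of the 10 genes in each of the 20 aortas on a log axis, 1 point per library, coloured by group, with R-16 as a star and libraries at 0 counts drawn as triangles at the foot. R-16 lies above every other aorta for Slpi, Padi4, Itgam, Lyz2, Adgre1 and Cd68, and within the range of the others for Csf1r, Mrc1, S100a8 and S100a9.

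Related genes were uneven in R-16 too, and those named here were chosen after their values were seen. The share of all genes that were highest in R-16 was not counted. Of 16 further macrophage genes, 7 were highest in R-16 and 7 were under the median of the other aortas. Tyrobp (5.33 times that median), Cd14 (5.61 times), Mpeg1 (4.84 times) and Ctss (4.77 times), an adaptor of activating receptors, the LPS co-receptor, a pore-forming protein and a cathepsin, were among the former. C1qa (1.69 times), C1qb (2.93 times) and C1qc (2.04 times), chains of complement C1q, were among them too. Folr2 (0.499 times), Ms4a7 (0.507 times), Lyve1 (0.684 times), Fcgr1 (0.694 times), Cd163 (0.708 times), F13a1 (0.721 times) and Aif1 (0.993 times) were the latter. Of the listed macrophage genes, Mrc1 was under that median and Adgre1 was 3.22 times it. Macrophage genes thus did not move as one in R-16. Itgb2, which encodes the beta chain paired with Itgam, was 150.5 FPM in R-16, 18.8 times the median of the others.

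Of 5 neutrophil genes tested, 4 were highest in R-16. They were Clec4d (75.0 times the median of the others), Hdc (19.2 times), Pglyrp1 (10.7 times) and Csf3r, the receptor for G-CSF (8.08 times), whereas Mmp9 was 0.663 times that median. Ly6g, the defining neutrophil surface marker, had 0 counts in R-16 and at most 0.0477 FPM in the other aortas, and S100a8 and S100a9 were not raised there. Prtn3, the granule protease proteinase 3, and Mcemp1 did not pass the filter, with 12.9 and 14.3 FPM in R-16 and at most 0.418 and 0.837 FPM elsewhere, while Elane and Mpo, 2 more granule enzymes, had 0 counts in R-16 and at most 0.093 FPM in any aorta. Of the genes that passed the filter, 13 were more than 10 times higher in R-16 than in every other aorta. Slpi, Itgam and Padi4, which were picked for such values, are 3 of them. The others with the highest levels were Prg4, a lubricating glycoprotein (542 FPM), Alox15, a lipoxygenase (412 FPM), F5, coagulation factor V (93.9 FPM), and Saa3, an acute-phase protein (37.9 FPM).

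Markers of other blood cells were high in R-16 and R-11, and their part in the result was not tested. The summed level of 3 leukocyte genes was 245 FPM in R-16 and 119 FPM in R-11, and that of 4 B cell genes was 100 and 54.2 FPM. The 4 globin genes summed to 61110 FPM in R-16 and 80124 FPM in R-11, 4 platelet genes to 111 and 236 FPM, and 4 endothelial genes to 470 and 539 FPM. WT HFD aortas reached 44483 FPM for the globin and 144 FPM for the platelet genes, with Slpi at most 1.22 FPM. Endothelial sums were as low as 240 FPM in WT SD and 296 FPM in WT HFD aortas. R-13 and R-17, the other libraries with raised Slpi and Padi4, had B cell sums of 2.40 and 3.12 FPM and leukocyte sums of 49.8 and 47.7 FPM, within the range of the other aortas. Their globin sums were 9664 and 7066 FPM and their platelet sums 37.6 and 30.6 FPM.

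**Figure D2:**
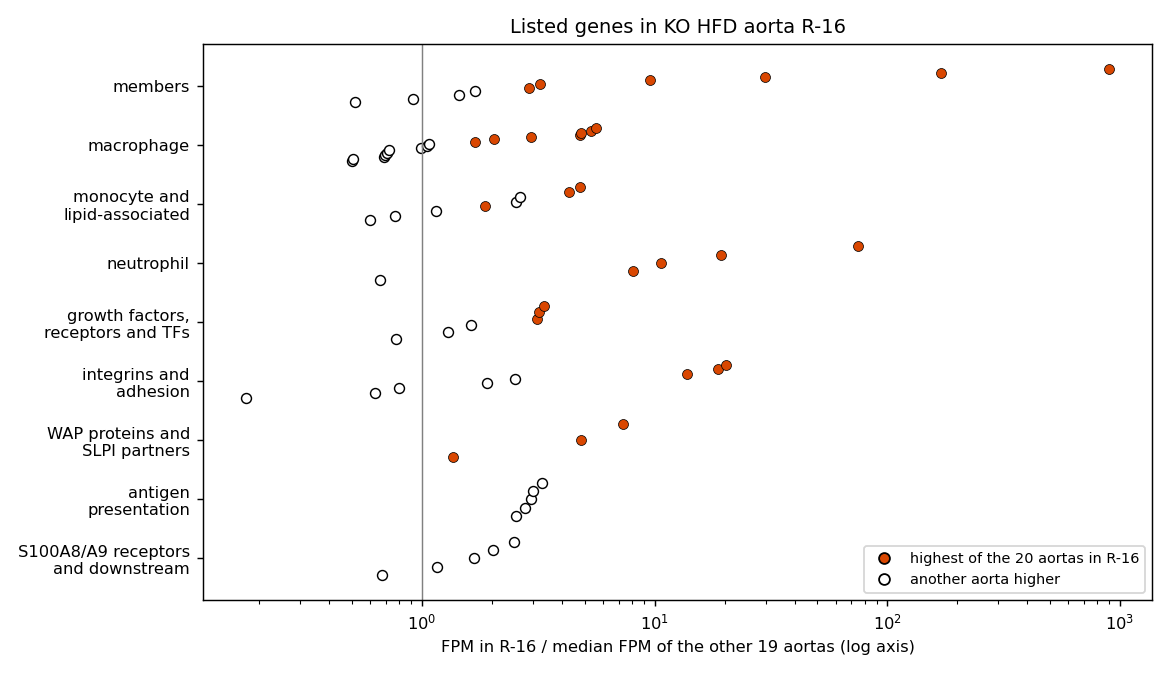
Ratio of FPM in the KO HFD aorta R-16 to the median of the other 19 aortas on a log axis, 1 point per gene that passed the filter, by gene list, filled where R-16 was the highest of the 20 aortas. Slpi and Padi4 lie furthest right, 6 of 10 listed genes and 7 of 16 further macrophage genes were highest in R-16, and no antigen presentation gene was. Slpi, Padi4 and Itgam, which are among the 6, were picked for their high values in single KO HFD aortas. The share of all genes highest in R-16 was not counted.

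Whether the diet or the deletion changed these genes in aortas was tested in 6 contrasts, and 0 of the 7 genes other than Slpi, Padi4 and Itgam were called in each at an adjusted p under 0.05. Over all 15122 genes tested, 0.0132% were called for HFD in WT, 0.0529% for HFD averaged over both genotypes (0.00661% higher and 0.0463% lower) and 0% in the other 4 contrasts, so a count of 0 is at the background. At an unadjusted p under 0.05, 394 genes passed for HFD in WT, 690 for HFD in KO, 1013 for HFD over both, 345 and 884 for KO against WT under SD and HFD, and 127 in the interaction. DESeq2's Wald test gave no adjusted p for Lyz2 and called 0 of the other 6 of these genes in each contrast. In the further lists of macrophage, neutrophil and related genes, 0 genes were called in these contrasts as well. The difference by HFD in WT with the smallest p was that of Csf1r, with 68.2, 42.3, 50.1, 84.1 and 101 FPM in WT SD and 56.2, 47.3, 41.6, 40.6 and 46.9 FPM in WT HFD. The groups overlapped and the log2 fold change of Csf1r was -0.57 ± 0.19 (SE, adjusted p = 1.00).

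Under HFD, the listed macrophage genes had higher means in KO than in WT, and no difference passed the test. Csf1r was 60.6 to 90.6 FPM in KO HFD and 40.6 to 56.2 FPM in WT HFD, so these groups did not overlap. Its log2 fold change was 0.70 ± 0.20 (SE, adjusted p = 0.492), and 0.62 without R-16 and the near-identical pair. Adgre1 did not overlap either, with 17.2 to 55.0 FPM in KO HFD and 8.30 to 13.9 FPM in WT HFD. How many of all genes had groups without overlap in this contrast was not counted, so no background stands beside Csf1r, Adgre1 or Lyz2. The difference for Adgre1 was 1.20 ± 0.35 on the log2 scale (adjusted p = 0.525) and 0.76 without R-16.

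Lyz2 was 184, 156, 144, 130 and 116 FPM in WT HFD and 1875, 196, 186, 267 and 186 FPM in KO HFD, where every KO library was above every WT library. For KO against WT under HFD, Lyz2 had a log2 fold change of 1.89 ± 0.52 (adjusted p = 0.473) and 0.51 without R-16, so this library set most of its size. For HFD against SD in KO the log2 fold change of Lyz2 was 1.01 ± 0.51 (adjusted p = 0.987) and turned to -0.36 without R-16. Cd68 (log2 fold change 0.77 ± 0.29, adjusted p = 0.675) and Mrc1 (0.48 ± 0.32, adjusted p = 0.894) overlapped between KO and WT under HFD. The comparison of KO with WT under HFD and that of HFD with SD share the KO HFD libraries, R-16 included.

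Under SD, the listed genes S100a8, S100a9, Slpi, Padi4 and Itgam had higher means in KO, by little for Itgam. S100a9 was 1.69, 0.571, 0.370, 0 and 0.922 FPM in WT SD and 4.69, 1.63, 2.20, 0.646 and 2.44 FPM in KO SD, which overlapped. S100a8, its partner in the heterodimer calprotectin, was 1.15, 0.263, 0.264, 0.0953 and 0.439 FPM in WT SD and 3.11, 1.21, 1.20, 0.348 and 1.08 FPM in KO SD. The log2 fold changes were 1.66 ± 0.67 for S100a9 and 1.57 ± 0.59 for S100a8 (adjusted p = 1.00 for each). Those of Slpi, Padi4 and Itgam were 2.91, 1.77 and 0.20. No test is read for Slpi, Padi4 and Itgam, since R-16 took part in the estimate of their spread. R-1 and R-12, which differed by less than the sampling noise, stand on opposite sides of this comparison. Without them the log2 fold changes were 2.39 for S100a9 and 2.40 for S100a8, with adjusted p values from 0.432 upward. Those of Slpi and Padi4 were then 3.84 and 2.16. R-11, the highest library for both S100 genes, is also the one with the highest globin sum.

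In kidneys, HFD went with higher levels of 4 macrophage genes, Cd68, Lyz2, Mrc1 and Adgre1, and a lower level of Csf1r. Averaged over both genotypes, 5 of the 9 genes that passed the filter were called, where 16.4% of all 15943 genes were. Of the 9, 4 were higher and 1 lower, against 7.7% and 8.7% of all genes. In WT alone 2 of 9 were called, both higher (6.71% of all genes, 3.03% higher), and in KO alone 0 of 9 (6.34%). DESeq2's Wald test called 4 of 9 in WT, 2 in KO and 7 over both.

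Cd68 was 1.5, 3.18, 1.79, 2.62 and 1.94 FPM in WT SD (a16 to a20) and 4.63, 4.25, 5.58, 3.62 and 2.76 FPM in WT HFD (a11 to a15). In KO it was 3.24, 2.48, 3.54, 3.65 and 3.14 FPM under SD (a6 to a10) and 4.21, 4.65, 4.68, 4.47 and 3.89 FPM under HFD (a1 to a5). The KO groups did not overlap, 4 of 5 WT HFD kidneys were above every WT SD kidney, and 8 of 10 HFD kidneys were above all 10 SD kidneys. For such counts of kidneys, here and for the genes below, the share over all genes was not counted. The log2 fold change of Cd68 was 0.92 ± 0.20 in WT (adjusted p = 0.0065), 0.45 ± 0.20 in KO (adjusted p = 0.207) and 0.68 ± 0.14 over both (adjusted p = 0.0017). The difference of Cd68 between the genotypes' responses was -0.47 ± 0.28 (adjusted p = 1.00) and did not pass the test. KO exceeded WT under SD by 0.54 ± 0.20 for Cd68 (adjusted p = 1.00), with 3 of 5 KO SD kidneys above every WT SD kidney.

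Lyz2 rose by a similar amount. It was 18.6, 28.7, 16.5, 22.7 and 26.1 FPM in WT SD and 31.5, 32.5, 52.7, 41.3 and 26.1 FPM in WT HFD. In KO it was 27.8, 19.4, 28, 24.9 and 29.6 FPM under SD and 32.4, 51.2, 40.2, 53.0 and 25.4 FPM under HFD. In each genotype 4 of 5 HFD kidneys were above all SD kidneys of that genotype and the fifth overlapped with them. On the log2 scale the change of Lyz2 came to 0.71 ± 0.21 in WT (adjusted p = 0.0484), 0.64 ± 0.21 in KO (adjusted p = 0.0795) and 0.67 ± 0.15 over both (adjusted p = 0.00351). The call of Lyz2 in WT alone is close to the threshold and was lost in 13 of 20 fits that left out 1 library, whereas that over both genotypes was kept in all 20.

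Mrc1 and Adgre1 passed the test only over both genotypes. Mrc1 was 2.50, 4.25, 1.4, 3.42 and 3.35 FPM in WT SD against 6.53, 3.52, 6.85, 6.32 and 5.07 FPM in WT HFD, and 3.50, 2.35, 4.0, 2.27 and 3.19 FPM in KO SD against 3.52, 6.05, 7.48, 5.52 and 3.04 FPM in KO HFD. Its log2 fold change was 0.92 ± 0.28 in WT (adjusted p = 0.0542), 0.74 ± 0.28 in KO (adjusted p = 0.139) and 0.83 ± 0.20 over both (adjusted p = 0.00619). For Mrc1, 7 of 10 HFD kidneys were above all SD kidneys, and the lowest HFD values lay among them.

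Adgre1 was 2.20, 5.37, 1.53, 3.80 and 4.84 FPM in WT SD against 6.57, 4.51, 8.54, 7.29 and 5.71 FPM in WT HFD, and 4.21, 2.19, 4.70, 3.86 and 5.52 FPM in KO SD against 4.59, 5.53, 7.31, 6.79 and 4.08 FPM in KO HFD. Again 7 of 10 HFD kidneys were above all SD kidneys. Adgre1 changed by a log2 fold of 0.88 ± 0.29 in WT (adjusted p = 0.0845), 0.47 ± 0.29 in KO (adjusted p = 0.41) and 0.67 ± 0.21 over both (adjusted p = 0.0312). Without a16 and a18, which had the lowest renal endothelial sums (91.1 and 54.8 FPM, the other kidneys at least 117 FPM), it was 0.49 for Adgre1 over both genotypes (adjusted p = 0.0615), and the call was also lost in 5 of 20 fits without 1 library. Without a16 and a18, 0 of the 9 listed genes were called in WT.

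**Figure D3:**
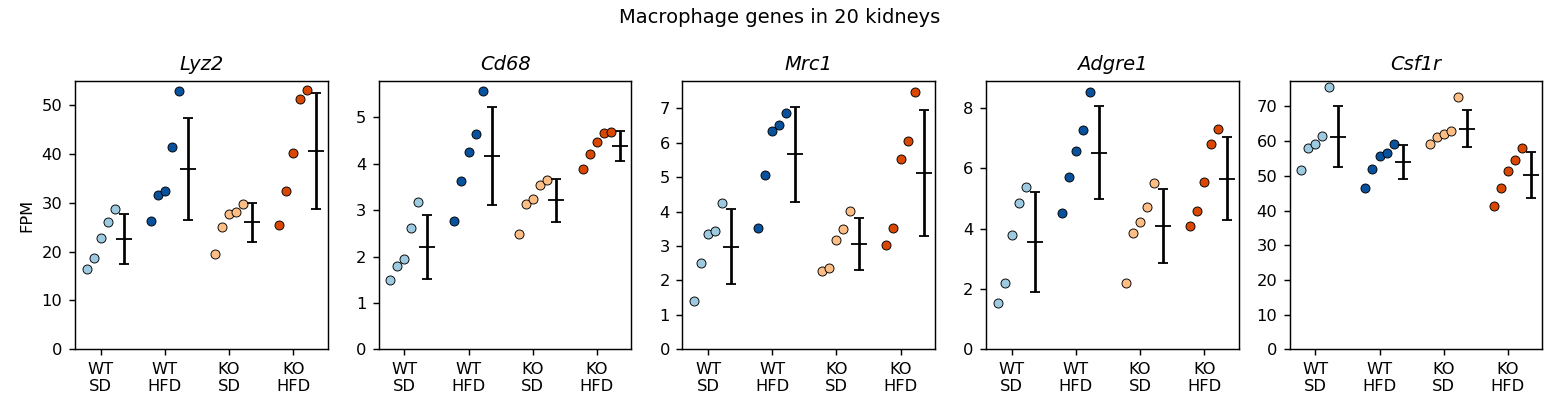
FPM of Lyz2, Cd68, Mrc1, Adgre1 and Csf1r in the 20 kidneys by group, 1 point per library, with the mean and SD (n = 5) beside each group, on linear axes from 0. Means of HFD groups lie above those of SD groups in both genotypes for the first 4 genes and below for Csf1r. The KO groups of Cd68 and Csf1r do not overlap, and the share of all genes for which this holds was not counted.

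Csf1r, which also marks macrophages, was lower under HFD. It was 58.1, 75.6, 59.2, 51.7 and 61.5 FPM in WT SD against 55.7, 46.4, 59.1, 56.6 and 52.1 FPM in WT HFD. In KO it was 61.1, 62.2, 62.8, 72.7 and 59.2 FPM under SD against 46.4, 51.4, 41.3, 54.6 and 57.9 FPM under HFD, and these groups did not overlap. The log2 fold change of Csf1r was -0.18 ± 0.10 in WT (adjusted p = 0.345), -0.34 ± 0.10 in KO (adjusted p = 0.0533) and -0.26 ± 0.07 over both (adjusted p = 0.0168). The call of Csf1r was lost without a1 and a12 (-0.22, adjusted p = 0.053) and without a17, a8 and a9 (-0.18, adjusted p = 0.107), 3 kidneys in which Csf1r was above every other kidney.

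As Adgre1 and Csf1r moved in opposite directions, their count ratio differed between diets. There were 10.7 to 38.7 Csf1r counts per Adgre1 count in SD kidneys (median 14.3) and 5.65 to 14.2 in HFD kidneys (median 8.80). In aortas, the ratio was 3.36 to 6.45 under SD and 1.65 to 5.70 under HFD. The 1.65 is that of R-16, and the next HFD aorta, R-9, had 3.26. Over 19 points, with the near-identical pair averaged, the Spearman correlation of Csf1r with Adgre1 was 0.889 in aortas and -0.389 in kidneys, and that of Adgre1 with Mrc1 in kidneys was 0.911. These points share library and depth, and the values are a description. The Csf1r gene overlaps Hmgxb3 on the opposite strand over 873 bases, and without a stated strand setting reads of both in that stretch cannot be told apart.

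The wider list of macrophage genes was higher under HFD as well. Of 16, 15 passed the filter, and over both genotypes 11 were called higher and 0 lower, with a median log2 fold change of 0.64. Of all genes, 7.7% were called higher and 8.7% lower there. In WT 7 and in KO 3 were called, all higher, where 3.03% and 3.16% of all genes were called higher. F13a1, the A chain of coagulation factor XIII, had the largest change (2.00 ± 0.35, adjusted p = 0.000448), followed among the named genes by Ctss (0.72 ± 0.16), C1qc, a chain of complement C1q (0.67 ± 0.14), Tyrobp (0.64 ± 0.13) and the protease gene Lgmn (0.48 ± 0.07). This list was put together with results of these libraries known and is not independent evidence of the direction.

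Of 8 monocyte and lipid-associated macrophage genes tested over both genotypes, 3 were called higher and 1 lower. Of all genes, 7.7% were called higher and 8.7% lower in this contrast. Lists of 5 or 6 genes are too short to tell a few calls from these shares. Gpnmb (3.28 ± 0.52), Trem2, a lipid receptor (1.78 ± 0.40), and Cd9 (0.30 ± 0.07) rose, and Lpl, lipoprotein lipase (-1.67 ± 0.15), fell. Among 7 genes of integrins, their ligands and leukocyte adhesion, the complement component C3 (1.57), a fragment of which binds Mac-1, the endothelial selectin gene Sele (1.97) and Vcam1 (0.65) were called higher. Of 6 growth factor, receptor and transcription factor genes, Cebpa rose (0.50) and Cebpb fell (-1.10), the latter call being lost without a17, a8 and a9 (-0.40, adjusted p = 0.0547). Of 6 neutrophil genes tested, Lcn2, lipocalin 2, was called higher (0.89) and Hdc, histidine decarboxylase, fell (-0.56), and the median was -0.41. The call of Lcn2 was lost in 12 of 20 fits without 1 library. Of 6 S100A8/A9 receptor and downstream genes, Ly96, the partner of TLR4, rose (0.49), and Il1b was called lower (-3.05) but turned to 0.62 without a17, a8 and a9 (adjusted p = 0.0278). None of 5 antigen presentation genes was called, and their median log2 fold change was 0.35. Of 5 whey acidic protein and SLPI partner genes, Wfdc17 was called (0.48), a call that was lost in 8 of 20 fits without 1 library, and of the peptidylarginine deiminases only Padi2 was tested and not called.

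Other cell markers moved with the macrophage genes in kidneys, and their part in the result was not tested. The summed level of 3 leukocyte genes was 27.5 to 56.5 FPM in SD and 43.5 to 68.1 FPM in HFD kidneys, that of 3 fibroblast genes 17.3 to 58.4 and 36.7 to 67.9 FPM, and that of 4 tubule genes 9115 to 10167 and 8367 to 9190 FPM. The defining T cell genes Cd3e and Cd3d were at 0 counts in every library of both tissues, as were all genes of their chromosome, chromosome 9, so T cells could be followed by the 3 other genes of their list only.

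**Figure D4:**
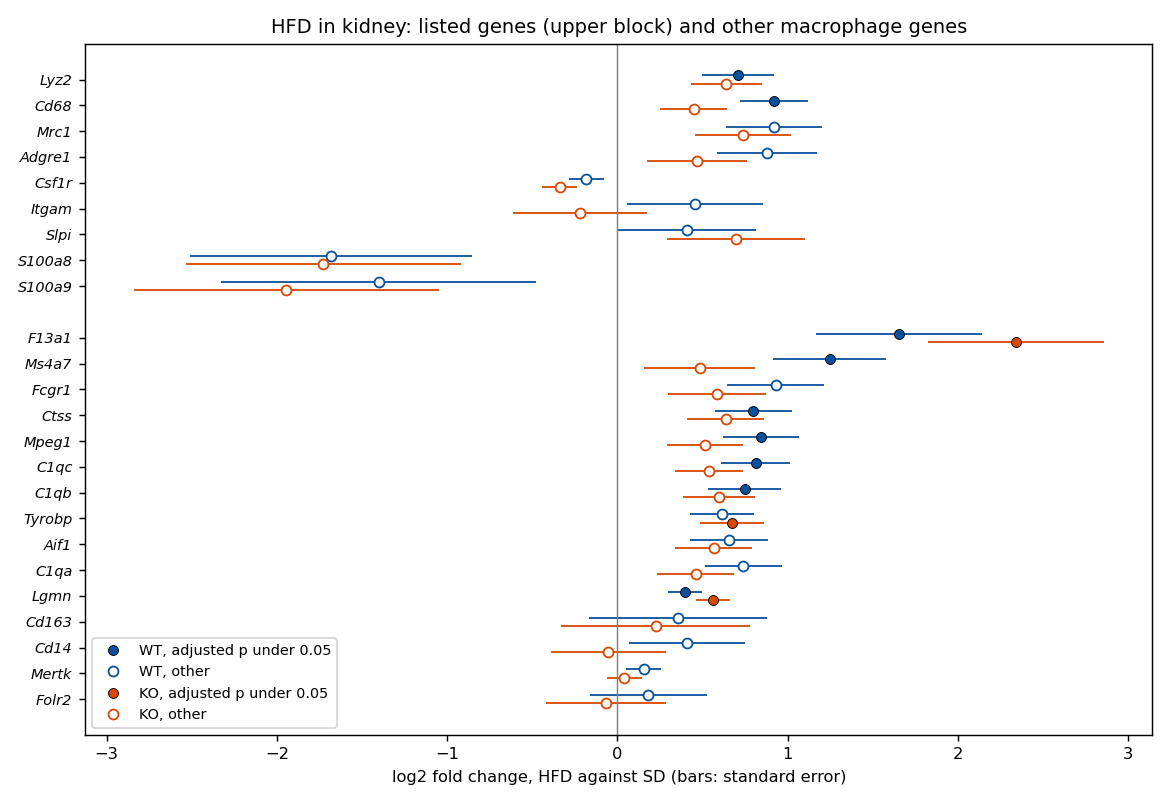
Log2 fold change of HFD against SD in kidneys for the 9 listed genes that passed the filter (upper block) and 15 further macrophage genes, in WT and KO, with bars of 1 standard error and filled points at an adjusted p under 0.05. Lyz2 and Cd68 are called in WT, Csf1r lies left of 0 in both genotypes, and S100a8 and S100a9 have the widest bars.

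S100a8 and S100a9 were high in 3 of 20 kidneys, all under SD. S100a9 was 9.78 and 10.3 FPM in the KO SD kidneys a8 and a9 and 6.91 FPM in the WT SD kidney a17, and at most 1.45 FPM in the other 17. S100a8 was 3.68 and 3.61 FPM in a8 and a9 and 3.26 FPM in a17, and at most 0.913 FPM in the others. In HFD kidneys S100a9 was 0.379, 1.10, 1.00, 0.407 and 0.479 FPM in WT and 1.12, 1.03, 0.919, 1.45 and 1.19 FPM in KO, and the remaining SD kidneys overlapped with these. Over both genotypes the log2 fold change by HFD was -1.70 ± 0.58 for S100a8 (adjusted p = 0.0503) and -1.67 ± 0.64 for S100a9 (adjusted p = 0.0849). Without a17, a8 and a9 it was -0.00 for S100a8 (adjusted p = 0.996) and 0.57 for S100a9 (adjusted p = 0.179), so these libraries set the direction for S100a9 and the size for S100a8. S100a8 was not called but lay near the threshold. A call was gained in 6 of 20 fits without 1 library and without a16 and a18 (adjusted p = 0.0221).

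Of the 6 further neutrophil genes tested in kidneys, 2 were higher in all 3 of these libraries than in every other kidney, namely Csf3r and Mcemp1, and Lcn2, Hdc, Pglyrp1 and Mmp9 were not. The genes named here were chosen after their values were seen. Csf3r was 2.27 to 3.35 FPM there and at most 1.96 FPM in the other 17, and Cxcr2, a chemokine receptor of neutrophils, was 0.336 to 0.931 FPM and at most 0.290 FPM. Il1b, the cytokine interleukin 1 beta, was 11.8 to 66.8 FPM against at most 2.1 FPM, and Cebpb, a transcription factor of the acute response, 46.5 to 74.0 FPM against at most 24.6 FPM. Ly6g had 0 counts in all 3, and Mpo had 0 counts in every kidney. Camp, Ngp, Ltf and Mmp8 lie on chromosome 9, where all genes are at 0 in both tables, so they carry no information here. Itgam (0.885 to 1.12 FPM), Slpi (0.644 to 1.21 FPM) and Lyz2 (24.9 to 28.7 FPM) of these kidneys lay within the range of the others.

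**Figure D5:**
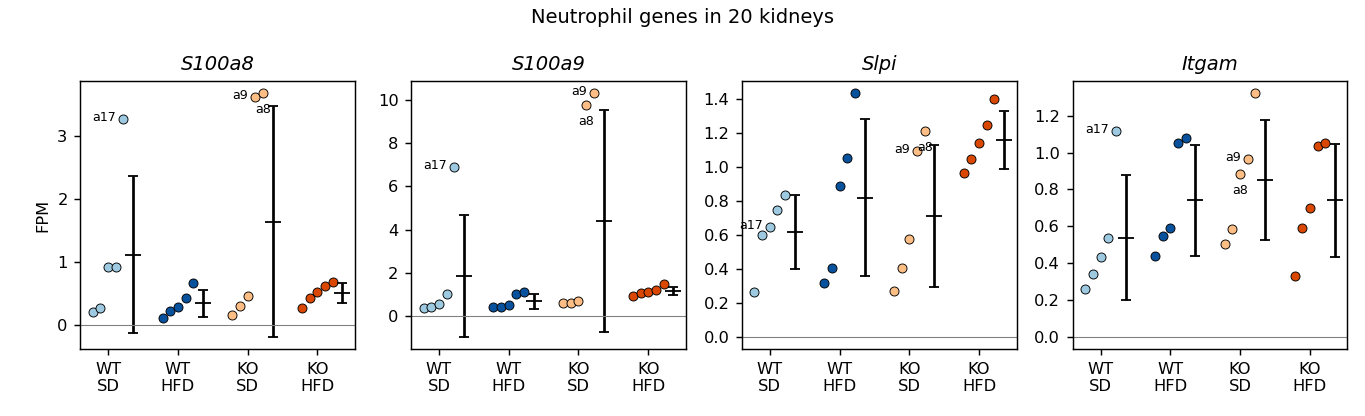
FPM of S100a8, S100a9, Slpi and Itgam in the 20 kidneys by group, 1 point per library, with the mean and SD (n = 5) beside each group on linear axes; error bars that reach under 0 are drawn in full. The SD kidneys a8, a9 and a17 lie apart for S100a8 and S100a9 but not for Slpi and Itgam.

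Slpi and Itgam were low in kidneys. Within each genotype the SD and HFD groups of both genes overlapped. Slpi ranged from 0.262 to 1.43 FPM, with means of 0.617 ± 0.219 in WT SD, 0.819 ± 0.462 in WT HFD, 0.711 ± 0.419 in KO SD and 1.16 ± 0.170 in KO HFD (SD, n = 5 each), and its log2 fold change by HFD over both genotypes was 0.55 ± 0.29 (adjusted p = 0.208). Itgam ranged from 0.262 to 1.32 FPM, and HFD over both genotypes moved it by 0.12 ± 0.28 on the log2 scale (adjusted p = 0.818). Padi4 was at most 0.279 FPM in every kidney, and no difference was detectable at this depth. None of the elevations of Slpi, Padi4 and Itgam seen in aortas had a counterpart of that size in kidneys.

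The deletion of EGFR was not followed by a called change of these genes in kidneys. Under SD and under HFD, 0 of 9 genes were called for KO against WT, and 0 in the interaction with diet, as for all 15943 genes (0% in each). At an unadjusted p under 0.05, 426 genes passed under SD, 546 under HFD and 285 in the interaction. DESeq2's Wald test called 0 of the 9 genes in each of these contrasts.

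For Adgre1, S100a8 and Padi4, genes among the 5 with the most similar order of libraries are given by Spearman's rho over 19 points per tissue, as a description. In aortas they included Nectin4 (0.937), Plxnc1 (0.930), Fam111a and Igsf6 for Adgre1. For Padi4 they included Alox15 (0.839), Selplg, the ligand of P-selectin (0.747), Gpr132 and Top2a (0.739). In kidneys they were Col3a1 (0.944), a fibrillar collagen, Synpo2, Mpeg1 (0.926), Sfrp1 and Samhd1 for Adgre1, so that a fibroblast gene and a macrophage gene were both among them. For S100a8 they were Pwwp2b (0.786), Stk32c, Fam205a1, Smim24 and the chemokine gene Cxcl13 (0.753) in aortas and included Hspb1 (0.779), Pim1, Bcar3 and Bag5 in kidneys. S100a8 and S100a9 themselves had a rho of 0.858 in aortas and 0.756 in kidneys.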

How the data were processed

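RNA of 20 aortas and 20 kidneys, 5 for each genotype and diet, was grouped by the labels. The authors deposited whole-number read counts per gene (GRCm38/mm10), without normalization; HISAT2 2.1.0 and featureCounts are named in the submitters' processing notes and TopHat2 for mapping in the study's methods. Strand setting and treatment of reads with several positions are not given in the sources used here. The 20 libraries of a tissue entered 1 robust quasi-likelihood fit of edgeR 4.0.16 under R 4.3.3, after filterByExpr by group and TMM scaling, with p values adjusted by Benjamini-Hochberg, and a gene was called at an adjusted p under 0.05. Calls for HFD averaged over both genotypes were tested on simulated data. These data held no library set apart across genes and no near-identical pair, so they do not bear on the effect of such libraries. FPM are counts relative to the TMM-scaled library size, and levels per kb use exon lengths of the annotation. The p-values weigh group differences against the spread between libraries of a group. The near-identical pairs named above entered the reported fit as separate libraries. The 10 genes, the further gene lists and the rules were chosen with earlier results of these data known. All listed genes are named; of each further list the called genes, at most the 5 of smallest p, or else the 2 of highest level, and genes named otherwise are said to be chosen after their values were seen. Alternatives were DESeq2 1.42.0 size factors and its Wald test, other filters, the study's thresholds, no robust estimation, only the groups compared in the fit, and omission of single or doubtful libraries. Leaving out R-1, R-12 and R-16, a1, a12, a17, a8 and a9, or a16 and a18 was added after seeing the data. A few genes of the lists of similar order are not reported here.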

Additional observations from a re-analysis of the deposited data

Results flagged for a closer look

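Single libraries stood apart from their group in 11 of 80 groups of 5 values (10 genes, 2 tissues and 4 groups), judged by the gap to the nearest library relative to the range of the group. Chance flags about 1 in 20 groups, but Slpi, Padi4 and Itgam were chosen for their high values in single KO HFD aortas, so their 3 flags there were fixed by that choice. In the KO HFD aortas, R-16 was the outlying library for Slpi (498 FPM), Lyz2 (1875 FPM), Itgam (99.3 FPM), Padi4 (58.7 FPM) and Adgre1 (55.0 FPM). These flags come from 1 library and are not independent of each other. In the WT HFD aortas, R-8 was high for Padi4 (0.700 FPM) and low for Mrc1 (30.0 FPM). In the WT SD kidneys, a17 was high for S100a9 (6.91 FPM), S100a8 (3.26 FPM) and Padi4 (0.258 FPM). In the KO SD kidneys, a9 was high for Csf1r (72.7 FPM). S100a8 and S100a9 in the KO SD kidneys were not flagged, since a8 and a9 were high together.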

How the results depend on the processing

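In aortas, the count of called genes was 0 in each contrast under the alternatives run. Slpi, Padi4 and Itgam are not read as tested in contrasts with KO HFD libraries, nor where those libraries entered the estimate of spread. DESeq2's Wald test gave no adjusted p for them or for Lyz2. The log2 fold change of Lyz2 for HFD in KO reversed without R-16 (-0.36), without R-11 and R-16 (-0.33) and without R-1, R-12 and R-16 (-0.34), and ranged from -0.36 to 1.23 when single libraries were left out. In kidneys, the count for HFD in WT, 2 in the analysis reported, was 1 with the study's thresholds, 1 without a filter, 0 in a fit of the compared groups only, 4 with DESeq2's Wald test, 4 without a1, a12, a17, a8 and a9, and 0 without a16 and a18; it ranged from 1 to 4 when single libraries were left out. For HFD in KO, 0 became 2 with DESeq2's Wald test and ranged from 0 to 2 without single libraries. Over both genotypes, 5 became 3 with the study's thresholds and ranged from 4 to 6 without single libraries. The log2 fold change by HFD over both genotypes reversed for S100a9 without a17, a8 and a9 (0.57) and without a1 and a12 as well (0.44), for Il1b in the same fits (0.62 and 0.62, against -3.05) and for Itgam without a16 and a18 (-0.020). The adjusted p of Cd68, Lyz2 and Mrc1 over both genotypes was under 0.05 in each of 29 alternative fits, although the group means of Cd68 are under the level that the study's thresholds require. The cause of these changes was not tested. No paired analysis was possible because the groups share no replicate numbers. Low counts limit Padi4, Slpi, S100a8 and Itgam in kidneys, where few counts per library stand behind a value. The same limit holds in aortas for S100a8 (376 counts in all libraries together) and S100a9 (596 counts). It also holds for Slpi and Padi4 in most aortas other than R-16.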
